A study of Rattus norvegicus with 4 samples.

Results

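Aminoacyl-tRNA synthetases are the enzymes that join each amino acid to its transfer RNA before translation. The group described here holds 35 rat genes, named as 19 cytosolic and 16 mitochondrial enzymes, beside 16581 genes with a named probe on the arrays. The 35 were chosen by gene name and not by any measured value, though earlier results of these data were known. Enzymes whose name ends in 2 were taken as mitochondrial, and Gars1 and Kars1, which serve both compartments, were kept with the cytosolic ones. A gene was measured where the accession of at least 1 non-control probe mapped to it, which held for 32 of the 35 genes through 39 probes. The mitochondrial isoleucine, leucine and methionine enzyme genes Iars2, Lars2 and Mars2 had no named probe.

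The samples were 4 cultures of NR8383, a rat alveolar macrophage line started from lung lavage, all given the multi-walled carbon nanotube NM403 for 4 h, at a dose of 0.8 cm²/cm². Per the labels they are 4 biological replicates of cells after 20 passages, and RNA from each was hybridised to a 1-colour (Cy3) Agilent array. Control cultures without NM403 belong to the design but were not analysed here, so every value describes exposed cells and no response to NM403 could be tested. The line grows in part attached and in part floating, per the labels. Of 14 macrophage marker genes, 12 were above background on all 4 arrays, among them Cd68 and Ptprc, and Marco and Adgre1 were not on any. Of the markers of other cell types that were measured, 1 of 8 epithelial, 1 of 6 fibroblast, 1 of 5 neutrophil and 2 of 4 lymphocyte genes were above background on all arrays, and their part in the values below was not tested.

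In the cytosol and in mitochondria, translation runs on separate sets of these enzymes, and the mitochondrial set is also encoded in the nucleus. Several cytosolic enzymes sit together in the multisynthetase complex, held by the scaffold proteins AIMP1, AIMP2 and EEF1E1. When an amino acid runs short, uncharged transfer RNA activates the kinase GCN2 (gene Eif2ak4), translation initiation is curbed and the transcription factor ATF4 is made. ATF4 binds with C/EBP partners to a composite element, the C/EBP-ATF response element or CARE, and in mouse and human cells many cytosolic synthetase genes are among its reported targets.

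The element was searched for because it is the known sequence link between this family and amino acid stress. RefSeq promoter windows of rat assembly GRCr8, each 300 bases long with 250 before and 50 after a gene's start, were held for 33 of the 35 genes (35 windows); Gars1 and Rars1 had none. The letters TGATGNAA, read on both strands, were present in 7 of 17 windows of cytosolic enzyme genes and in 0 of 18 windows of mitochondrial ones, against 3.98% of all 33469 windows. The 7 genes were Aars1, Cars1, Iars1, Mars1, Nars1, Tars1 and Yars1, and all are on the list of 13 members reported as ATF4 targets. For each gene 1 match is printed within 30 bases, 5′ to 3′ in the direction in which the element reads, with the 8 letters of the match in capitals; positions are GRCr8 with the strand shown.
Aars1, chr19:55908480-55908509, minus strand: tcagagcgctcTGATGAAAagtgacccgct
Cars1, chr1:208225334-208225363, plus strand: tttccagaatcTGATGCAAccgcggcgccg
Iars1, chr17:15193658-15193687, plus strand: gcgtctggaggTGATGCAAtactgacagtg
Mars1, chr7:65023752-65023781, plus strand: ggagcccacgcTGATGCAAccggaacgggc
Nars1, chr18:60275778-60275807, minus strand: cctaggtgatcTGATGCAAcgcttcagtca
Tars1, chr2:62114811-62114840, plus strand: agctaaccagcTGATGCAAcgggacgccag
Yars1, chr5:146820183-146820212, plus strand: cggagctacgagctcagcTGATGCAAcctg
A match describes these letters and is no measurement of binding. Other promoter letters were counted in the same windows. The NRF1 letters GCGCA and GCGC, with 1 free base between them, were in 3 of 17 cytosolic windows (Farsb, Sars1, Tars1) and in 3 of 18 mitochondrial windows (Iars2, Pars2, Wars2), against 4.25% of all windows. The E-box CACGTG was in 5 of 17 cytosolic and 1 of 18 mitochondrial windows, against 6.42% of all. The CCAAT box was in 10 of 17 cytosolic and 6 of 18 mitochondrial windows, against 37.5% of all. Motifs were read on both strands and can overlap.

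A level is the log2 signal of a gene's brightest probe minus a value for its array, the 75th percentile over those probes that every array detected. It can be compared for 1 probe over the cultures, but not between genes. A gene was detected on an array where the scanner software called a probe of it well above background. Each array held 58717 non-control spots, of which 45.9% to 50.8% were called so, and between 7 and 11 of 308 negative control spots were too. The arrays did not scatter evenly: over the 7935 genes whose level probe was detected on all 4 arrays, Pearson's r was 0.996 for the pair of replicates 1 and 3, 0.992 for that of replicates 2 and 4, and 0.967 to 0.970 in the remaining pairs (across genes, which are not independent replicates). An SD over the 4 cultures therefore describes values that often lie in pairs. The median absolute difference of the cytosolic members was 0.03 between replicates 1 and 3, 0.07 between replicates 2 and 4 and 0.23 to 0.30 otherwise. For the mitochondrial members it was 0.13, 0.08 and 0.29 to 0.42, and for all genes 0.07, 0.09 and 0.36 to 0.38. The labels do not say what the paired arrays share. No spot was saturated, and with 4 arrays every SD is imprecise.

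All 19 cytosolic enzymes were detected on all 4 arrays, and so were 12 of the 13 measured mitochondrial enzymes, against 47.9% of all named genes. The exception was Aars2, the mitochondrial alanine enzyme gene, whose probe no array called well above background; a weaker flag of the same files, for a signal that is positive and significant against background, called it on all 4. Mean levels of the detected cytosolic members ran from -2.61 (Hars1) to 3.96 (Gars1) and those of the mitochondrial members from -5.23 (Vars2) to -1.36 (Tars2). These ranges hold different probes and do not show that one set is more abundant.

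**Figure D1:**
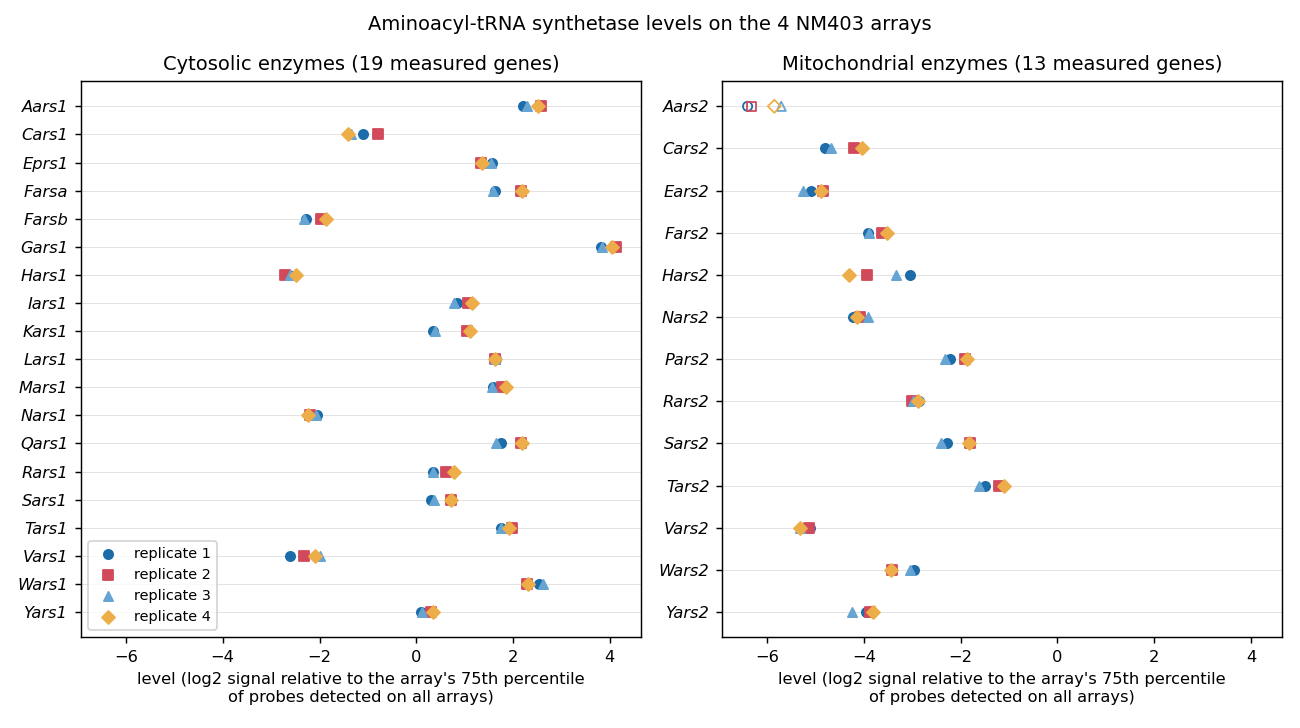
Level of each measured member on each of the 4 NM403 arrays, with cytosolic enzymes on the left and mitochondrial enzymes on the right. The x axis is the log2 signal relative to the array's 75th percentile of probes detected on all arrays, each symbol is 1 culture, and open symbols mark a gene not well above background. Symbols of Lars1 lie on top of each other, while those of Kars1 form 2 pairs and those of Hars2 spread over a 2.39-fold range.

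The multisynthetase complex members were all detected. With this scaling they ranged from the flattest gene of the family to the most variable cytosolic one. Lars1, the leucine enzyme, read 1.65, 1.63, 1.64 and 1.64 on replicates 1 to 4. Only 0.025% of genes had a smaller SD than its 0.0055, and its 10 spots had an SD of 0.035 to 0.052 within an array. The SD of Lars1 is tied to the scaling, and became 0.21 with the 75th percentile of all probes or the array median and 0.11 with quantile normalization. Other members were then flatter, among them Wars1 (0.051) with the 75th percentile of all probes and Tars1 (0.029) with quantile normalization. The second probe of Lars1, a single spot, read -0.32, -0.39, -0.32 and -0.35. It was flat as well with this scaling, which shifts both probes alike.

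Kars1, the lysine enzyme of cytosol and mitochondria, read 0.34, 1.04, 0.39 and 1.12 on replicates 1 to 4, with an SD of 0.41. It was low on replicates 1 and 3 and high on replicates 2 and 4, with no overlap between those values, and its range was 1.71-fold (1.61-fold with quantile normalization). Qars1, the glutamine enzyme, measured with 10 spots per array, read 1.76, 2.16, 1.64 and 2.19 (SD 0.27), also with replicates 2 and 4 on top. Its spots varied by an SD of 0.074 to 0.092 within an array, less than the SD between arrays. Rars1, the arginine enzyme, read 0.34, 0.61, 0.35 and 0.78, and Iars1, the isoleucine enzyme, read 0.85, 1.08, 0.79 and 1.15. Mars1, the methionine enzyme, read 1.59, 1.77, 1.56 and 1.85. These 3 also read higher on replicates 2 and 4, which for Mars1 did not hold with quantile normalization.

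Eprs1, the fused glutamate and proline enzyme, read 1.56, 1.34, 1.55 and 1.36, and so was higher on replicates 1 and 3. This order turned with the 75th percentile of all probes, where its deviations were -0.06, 0.08, -0.10 and 0.09. The signal ratio of genes of the complex therefore differed between arrays. Kars1 minus Eprs1 was -1.21, -0.30, -1.16 and -0.24 on replicates 1 to 4. That is a 1.96-fold change of the signal ratio between arrays, and 2.09-fold with quantile normalization. For Kars1 minus Lars1 the change was 1.72-fold, and 1.84-fold with quantile normalization. Subtracting a constant from an array leaves such signal ratios as they are, whatever the percentile. Ratios of the proteins in the complex were not measured.

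**Figure D2:**
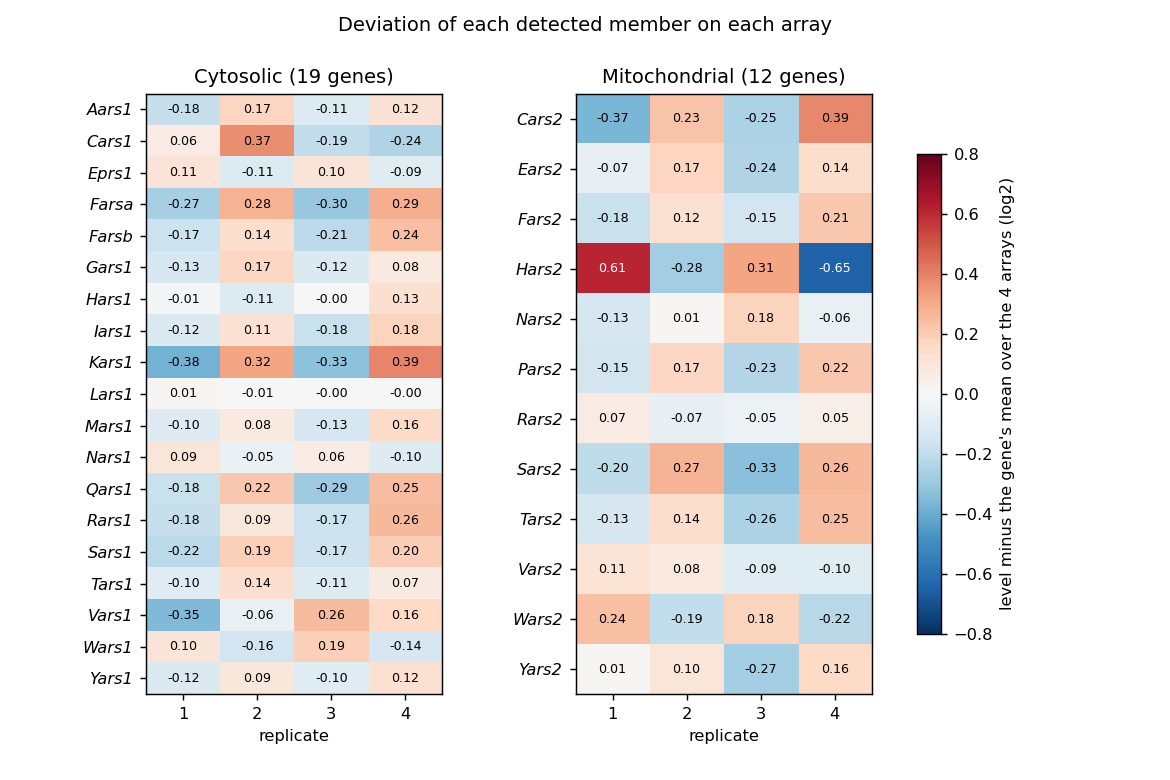
Deviation of each of the 31 detected members on each array from its own mean over the 4 arrays, in log2 units, with cytosolic enzymes on the left and mitochondrial enzymes on the right. Red is above and blue below the gene's mean; Lars1 stays within 0.01, and Hars2 runs from -0.65 on replicate 4 to 0.61 on replicate 1, against the direction of most members.

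Outside the complex, Farsa is the alpha subunit of the phenylalanine enzyme. It read 1.62, 2.17, 1.59 and 2.18 on replicates 1 to 4 (SD 0.33). Farsb, the beta subunit that pairs with it in a tetramer, read -2.28, -1.97, -2.32 and -1.87 (SD 0.22). The signals of the subunit genes kept their ratio closely: Farsa minus Farsb was 3.90, 4.13, 3.90 and 4.05, a 1.18-fold range.

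Gars1, the glycine enzyme of both compartments, read 3.82, 4.12, 3.84 and 4.04 on its brighter probe of 10 spots, and was higher on replicates 2 and 4, though not with quantile normalization. Its second probe read -0.83, -1.01, -0.71 and -0.91, lower on replicates 2 and 4, so the direction of Gars1 across cultures is not settled; up to 5 of 24 spots around this second probe were raised at least 4-fold on an array. Sars1, the serine enzyme, read 0.31, 0.72, 0.36 and 0.73. Aars1, the alanine enzyme, read 2.21, 2.57, 2.29 and 2.51. Both were higher on replicates 2 and 4, as Kars1 was, which for Aars1 did not hold with quantile normalization. Tars1, the threonine enzyme with 10 spots, read 1.75, 1.99, 1.74 and 1.92 (SD 0.12), and its spot SDs within an array were 0.040 to 0.059. With quantile normalization the SD of Tars1 was 0.029 and the arrays no longer fell into pairs. Yars1, the tyrosine enzyme, read 0.10, 0.31, 0.12 and 0.34.

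With this scaling a smaller number of cytosolic members went another way. Wars1, the tryptophan enzyme, which interferon gamma induces in human cells, read 2.54, 2.28, 2.63 and 2.30, higher on replicates 1 and 3. Its second probe read -1.74, -1.98, -1.87 and -2.16, also higher on replicates 1 and 3. With the 75th percentile of all probes the deviations of Wars1 lay between -0.07 and 0.04, so this order depends on the scaling. Nars1, the asparagine enzyme, read -2.04, -2.19, -2.08 and -2.24 (SD 0.094). Its deviations were -0.08, 0.14, -0.14 and 0.08 with the 75th percentile of all probes, so that Nars1 then went with the majority, as it did with quantile normalization. Cars1, the cysteine enzyme, read -1.10, -0.79, -1.36 and -1.40; replicate 2 stood highest, and the SD of 0.28 became 0.16 without it. Vars1, the valine enzyme, read -2.60, -2.31, -1.99 and -2.09; replicate 1 stood lowest, and the SD of 0.27 became 0.16 without it. Cars1 and Vars1 thus did not follow the pairs of arrays with this scaling, nor with quantile normalization. With the 75th percentile of all probes both read higher on replicates 2 and 4. The deviations were then -0.11, 0.56, -0.39 and -0.06 for Cars1 and -0.52, 0.13, 0.06 and 0.34 for Vars1.

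Though other pairs came close with quantile normalization, the histidine enzymes gave the widest change of ratio between compartments with each gene's brightest probe. Their genes lie head to head on chromosome 18 and share the stretch between their starts, which in RefSeq GRCr8 is 97 bases at chr18:28672713-28672809, plus strand, with Hars1 read leftward and Hars2 rightward. It is shown whole because it is the only sequence that separates the annotated ends of the 2 genes.
Hars1 to Hars2: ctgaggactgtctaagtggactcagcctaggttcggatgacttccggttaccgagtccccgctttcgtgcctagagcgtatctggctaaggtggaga
Hars2, the mitochondrial enzyme, read -3.05, -3.94, -3.35 and -4.31 on replicates 1 to 4 (SD 0.57), highest on replicate 1 and lowest on replicate 4. Hars1, the cytosolic enzyme, read -2.62, -2.71, -2.61 and -2.48 (SD 0.096, or 0.057 without replicate 4). On the brighter Hars1 probe the genes did not move together. Hars1 minus Hars2 was 0.43, 1.23, 0.74 and 1.83, a 2.63-fold change of the ratio. With quantile normalization it was 2.48-fold, against 2.48-fold for Eprs1 and Ears2 and 2.47-fold for Cars1 and Cars2. A second Hars1 probe, also detected on all arrays, read -2.81, -3.10, -3.08 and -3.14. Unlike the first probe, it ran in the same order over the arrays as Hars2, over a narrower range. Whether the genes moved together is therefore not settled. Hars2 rests on 1 spot per array, and 0 of the 24 spots around it were raised on any array.

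Hars2 was the 1 member of the family whose cultures spanned more than 2-fold, of 31 detected members, against 13.6% of all genes detected on all arrays. Its range was 2.39-fold over 4 arrays, 1.94-fold without replicate 1 and 1.85-fold without replicate 4. With the 75th percentile of all probes it was 1.87-fold and with quantile normalization 1.86-fold, so the 2-fold mark is passed under some settings only. Hars2 stayed highest on replicate 1 and lowest on replicate 4 with each of the 3 other scalings.

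With this scaling the other mitochondrial members varied less than Hars2. With the 3 other scalings Cars2 and Sars2 had larger SDs than Hars2. Ears2, Fars2 and Yars2 did too with the 75th percentile of all probes and with quantile normalization. With the 75th percentile of all probes so did Pars2 and Tars2. With the 75th percentile of all probes the SDs were 0.57, 0.52 and 0.38 for Cars2, Sars2 and Hars2. With the array median they were 0.53, 0.51 and 0.47, and with quantile normalization 0.62, 0.45 and 0.37. Cars2, the cysteine enzyme, read -4.80, -4.20, -4.68 and -4.05 (SD 0.37), and Sars2, the serine enzyme, read -2.29, -1.81, -2.42 and -1.83 (SD 0.31). Tars2, the threonine enzyme, read -1.49, -1.22, -1.61 and -1.11. These 3 were higher on replicates 2 and 4, as Kars1 and Farsa were. Pars2, the proline enzyme, read -2.23, -1.92, -2.32 and -1.87, and Ears2, the glutamate enzyme, read -5.09, -4.85, -5.27 and -4.88, both also higher on replicates 2 and 4. The SD of Ears2, 0.19, became 0.13 without replicate 3. No array called the second probes of Pars2 and Ears2 well above background.

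Wars2, the tryptophan enzyme, read -2.98, -3.41, -3.04 and -3.44, higher on replicates 1 and 3 as its cytosolic counterpart was. With the 75th percentile of all probes its deviations were 0.07, -0.01, -0.02 and -0.04 and its SD 0.051, against 0.24, so replicate 3 was then not high. Wars1 minus Wars2 had a 1.17-fold range, and 1.47-fold with quantile normalization. Rars2, the arginine enzyme, read -2.87, -3.00, -2.98 and -2.89, with an SD of 0.067, which was 0.19 to 0.21 with the other scalings. Vars2, the valine enzyme, read -5.11, -5.15, -5.32 and -5.32 (SD 0.11, or 0.24 to 0.31 with the other scalings). Nars2, the asparagine enzyme, read -4.23, -4.08, -3.91 and -4.15, and Yars2, the tyrosine enzyme, read -3.96, -3.87, -4.24 and -3.81. Replicate 3 stood apart in both, as the highest for Nars2 and the lowest for Yars2; with the other scalings it stayed lowest for Yars2 and was not highest for Nars2. Without it the SD of Nars2 was 0.072, against 0.13 with all arrays, and that of Yars2 was 0.075, against 0.19. Aars2 read -6.41, -6.32, -5.71 and -5.85, not well above background on any of them.

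Fars2, the mitochondrial phenylalanine enzyme, was read in opposite ways by its 2 probes. The probe to its curated transcript read -3.93, -3.63, -3.90 and -3.53 on replicates 1 to 4 and was detected on all. A second probe, mapped to a predicted transcript model of Fars2, read -4.57 and -4.67 on replicates 1 and 3, where it was well above background, and -8.03 and -7.88 on replicates 2 and 4, where it was not. The second probe is 1 spot per array and had 0 raised neighbours of 24. Only the first probe gives the level of Fars2 here, and with it Farsb minus Fars2 stayed within a 1.06-fold range over the arrays, the narrowest of 13 cytosolic and mitochondrial pairs (1.1-fold with quantile normalization).

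**Figure D3:**
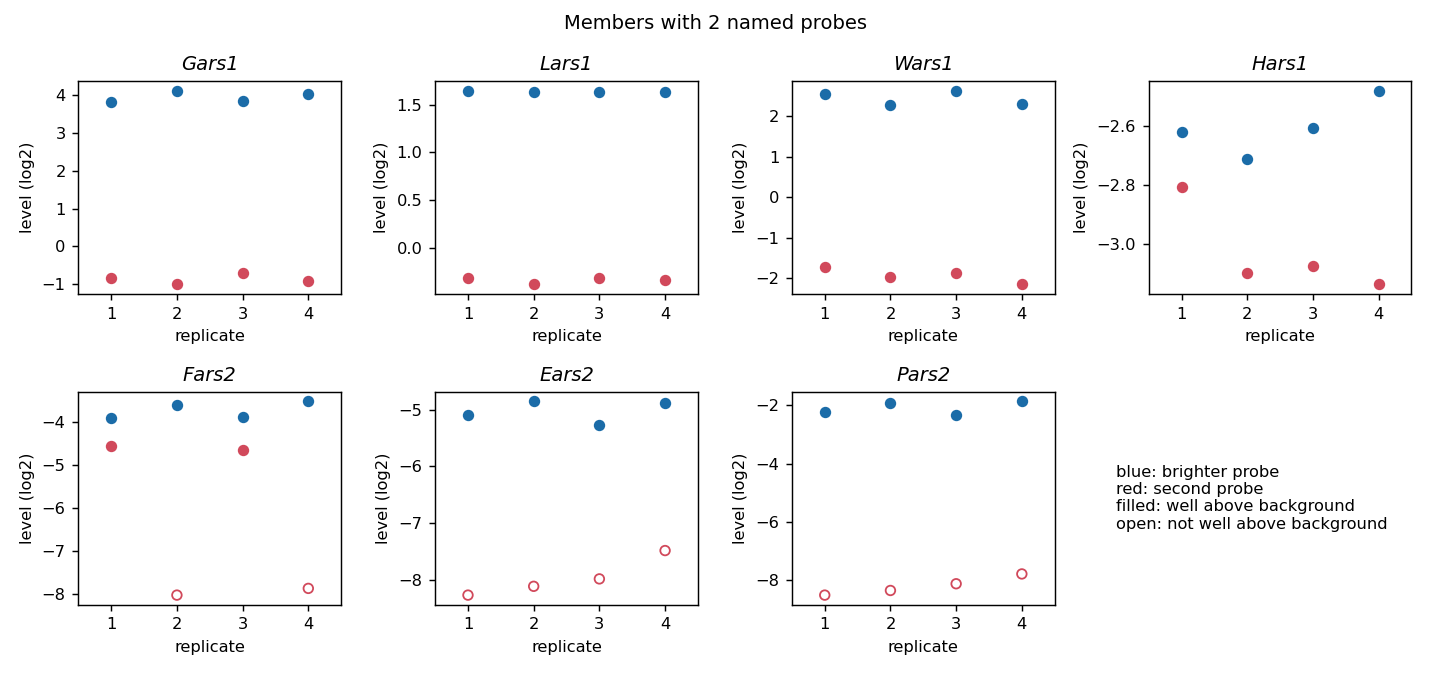
Levels of the 7 members with 2 named probes on replicates 1 to 4, in log2 units relative to the array's 75th percentile, on separate y axes. Blue is the brighter probe, red the second one, filled symbols are well above background and open symbols are not; the second Fars2 probe is filled on replicates 1 and 3 only, and the Lars1 probes are flat.

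How far the compartments differed in spread depended on the scaling. The median SD was 0.17 over the 19 cytosolic members and 0.21 over the 12 detected mitochondrial members, against 0.23 over all 7935 genes. With quantile normalization it was 0.17 over the cytosolic and 0.37 over the mitochondrial members. Genes with levels in the range of the cytosolic members had a median SD of 0.22, and genes in the range of the mitochondrial members 0.25. Over 13 pairs of a cytosolic enzyme with the mitochondrial enzyme for the same amino acid, the cytosolic gene had the larger SD in 4 and the mitochondrial gene in 9; Eprs1 and Fars2 each enter 2 pairs. At the low end the ratio within a pair moved by 1.06-fold, for Farsb and Fars2. At the high end it moved by 2.63-fold for Hars1, on its brighter probe, and Hars2, and by 2.08-fold for Cars1 and Cars2. With quantile normalization the ratios of Hars1 to Hars2, Eprs1 to Ears2 and Cars1 to Cars2 all moved by about 2.5-fold. With 1 group there was no test of these differences, and members are not replicates. By catalytic class, the 15 detected class I members had a median SD of 0.19 and the 15 detected class II members of 0.22, with Eprs1 in neither.

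**Figure D4:**
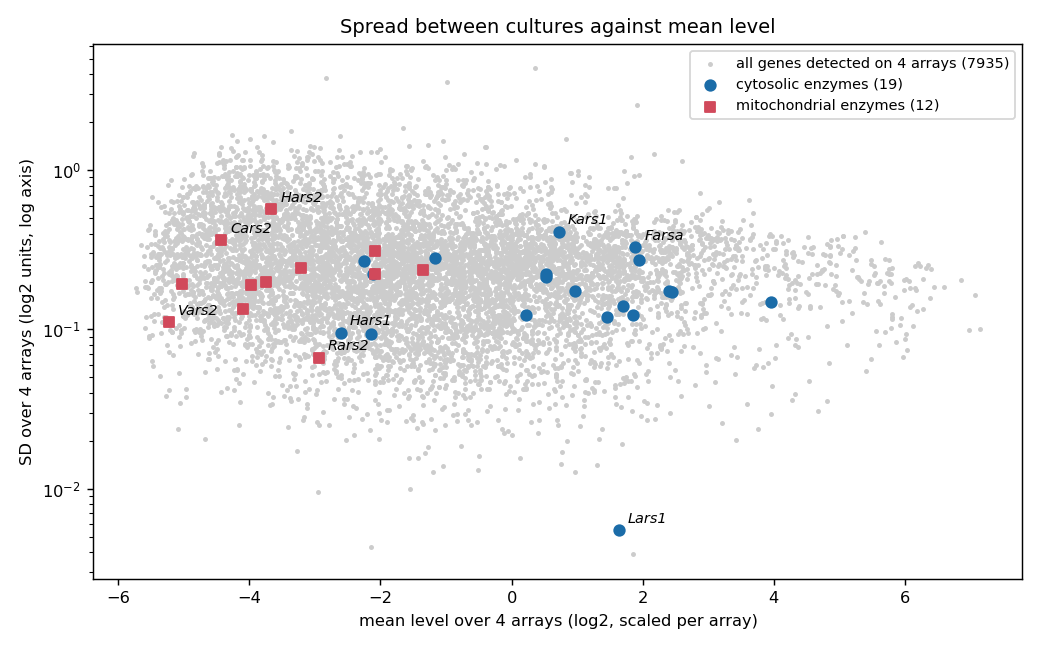
SD over the 4 arrays (log axis) against the mean level of each gene detected on all arrays, with 19 cytosolic enzymes in blue, 12 mitochondrial enzymes in red and all 7935 genes in grey. Lars1 lies near the lower edge of the cloud at 0.0055 and Hars2 is the highest member at 0.57, where 89.5% of genes have a smaller SD.

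Members tended to read higher on replicates 2 and 4, and so did the genes as a whole. The median deviation of the cytosolic members from their own means was -0.12, 0.11, -0.12 and 0.13 on replicates 1 to 4, and that of the mitochondrial members was -0.10, 0.11, -0.19 and 0.15. Over all genes it was -0.04, 0.04, -0.05 and 0.05. The share of genes above their own mean was 44.3%, 56.2%, 42.9% and 56.3% on replicates 1 to 4. Of the 19 cytosolic members, 5, 13, 4 and 14 were above theirs, and of the 12 mitochondrial members 5, 9, 3 and 8. Replicate 4 was the highest array for 10 cytosolic and 5 mitochondrial members, against 34.8% of all genes. With the array median it was the highest for 0 members. Replicate 2 was then the highest for all 19 cytosolic and 10 of the 12 mitochondrial members.

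With the main scaling, counts on the other arrays were small. Cytosolic members were highest on replicates 1, 2 and 3 in 3, 4 and 2 cases and mitochondrial members in 4, 2 and 1, against 20.7%, 23.2% and 21.3% of all genes. Cytosolic members were lowest on replicates 1 to 4 in 7, 4, 6 and 2 cases and mitochondrial members in 3, 1, 5 and 3, against 27.5%, 22.1%, 28.2% and 22.1% of all genes. The members' counts leaned the way the background did, with few members to read it from.

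The level of a gene moved with these deviations. Over the 5150 genes with mean levels within the range of the cytosolic members, the median deviation was -0.08, 0.08, -0.09 and 0.08 on replicates 1 to 4, closer to that of the cytosolic members than all genes were. Over the 4068 genes within the range of the mitochondrial members it was 0.04, -0.05, 0.03 and -0.03, opposite in sign to that of the mitochondrial members on every array. The part of signal level in the members' deviations was not tested.

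The size of this shift rests on the scaling. With the 75th percentile of all probes the median of all genes itself was -0.21, 0.23, -0.25 and 0.23. Relative to all genes, the cytosolic members then stood at -0.08, 0.07, -0.07 and 0.08, as with the main scaling, but at 0.03, -0.04, 0.03 and 0.01 with quantile normalization. The mitochondrial members stood at -0.06, 0.07, -0.15 and 0.10 relative to all genes with the main scaling, and at -0.15, 0.21, -0.25 and 0.23 with quantile normalization. The direction of the cytosolic set relative to other genes thus turned on replicates 1, 2 and 3, while that of the mitochondrial set did not.

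Which array was highest was counted for the cytosolic members on and off the list of reported ATF4 targets. The 6 cytosolic members that are not on the target list (Farsa, Farsb, Hars1, Kars1, Qars1 and Rars1) were all highest on replicate 4, against 34.8% of all genes, and 4 of the 13 listed targets were. These counts use each gene's brightest probe, and the second Hars1 probe was lowest on replicate 4, at -3.14. For Farsa and Qars1 the margin was small, with 2.17 and 2.16 on replicate 2 against 2.18 and 2.19 on replicate 4. With the 75th percentile of all probes the same 6 and 6 of the 13 targets were highest on replicate 4, and with quantile normalization the same 6 and 5 of the 13. With the array median all 6 and all 13 were highest on replicate 2, so the lists then did not differ. The median SD was 0.25 for these 6 and 0.15 for the 13 targets. For the 7 genes with a CARE match the median SD was 0.14, and for the 10 other cytosolic genes with a promoter window 0.22. Members of these lists overlap, and the lists were not tested against each other.

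The partners of the enzymes were detected as widely. Of the complex scaffold and elongation list, 9 of 10 measured genes were detected on all arrays, with a median SD of 0.24. The scaffold gene Aimp2 read 0.46, 1.13, 0.45 and 1.26 on replicates 1 to 4 (SD 0.43), and was higher on replicates 2 and 4, as was Kars1, whose enzyme its protein binds. Aimp1 read 1.38, 1.79, 1.27 and 1.63, and Eef1e1 read -1.0, -0.74, -0.79 and -0.54. Aimp1 was also higher on replicates 2 and 4, and in Eef1e1 replicate 4 was highest and replicate 1 lowest. Eef1d, a subunit of the factor that recharges the elongation factor EEF1A, read 3.70, 4.32, 3.76 and 4.37. Eef1g, another subunit, read 4.11, 4.61, 4.15 and 4.58, and both were higher on replicates 2 and 4. Aimp2, Eef1d and Eef1g had the largest SDs of the list. Of its 9 detected genes, 1, 8, 2 and 8 were above their own means on replicates 1 to 4. Xpot, the transfer RNA exporter, had no named probe.

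All 12 measured mitochondrial translation partners were detected, with a median SD of 0.31. Mtif2, the mitochondrial initiation factor, read -2.09, -4.12, -2.14 and -4.12, a 4.11-fold range and the widest of that list. Tufm, the mitochondrial elongation factor, read 2.11, 2.75, 2.18 and 2.88, and Gatc, a subunit of the amidotransferase that makes glutaminyl transfer RNA in mitochondria, read -2.37, -1.75, -2.29 and -1.69. Tufm and Gatc were higher on replicates 2 and 4, and Mtif2 was lower there. These genes were named because they had the largest SDs of the list. Of all 12 genes, 3, 11, 3 and 9 were above their own means on replicates 1 to 4.

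Of the integrated stress response and amino acid supply genes, 30 of 32 measured were detected on all arrays, with a median SD of 0.28. Atf4 itself was nearly flat, at 3.84, 3.98, 3.95 and 3.88 on replicates 1 to 4 (SD 0.060). Asns, the asparagine synthetase and a standard ATF4 target, read 2.42, 2.92, 2.33 and 2.97, and Trib3, an inhibitor of ATF4 signalling, read 1.03, 1.5, 1.1 and 1.64. Both were higher on replicates 2 and 4, as most cytosolic synthetase genes were.

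Other genes of that list did not share this order. Ddit3, the CHOP factor, read 1.91, 1.73, 1.90 and 0.89, and Chac1, a glutathione-degrading enzyme, read -2.65, -2.61, -2.42 and -3.33. With the main scaling both were lowest on replicate 4, where 10 of the 19 cytosolic synthetase genes were highest. With the array median 0 of the 19 were highest there. A range above 2-fold was seen for 4 of the 30 genes: Slc7a11, Slc7a5, Ddit3 and Cebpg, the last named after its value was seen. That is 13.3% of the list, near the 13.6% of all genes. Slc7a11, the cystine transporter, read 1.76, 0.00, 1.69 and 0.11, and Slc7a5, a carrier of large neutral amino acids, read -4.26, -3.15, -4.17 and -2.66. These transporters thus ran in opposite orders over the arrays, as did single synthetase genes such as Hars2 and Kars1.

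**Figure D5:**
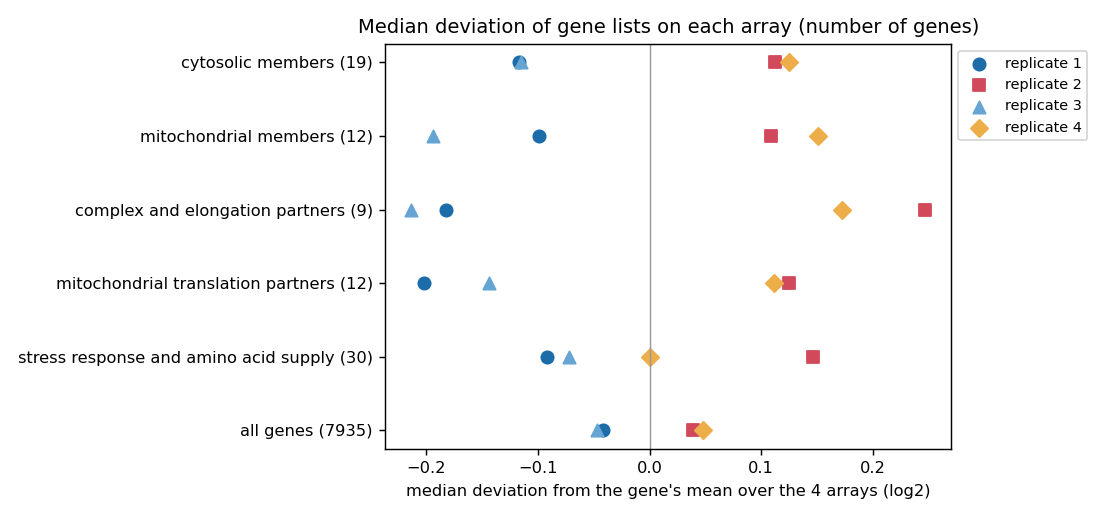
Median deviation of each gene list on each array from the genes' own means over the 4 arrays, in log2 units, with the number of detected genes in brackets. Cytosolic and mitochondrial members lie below 0 on replicates 1 and 3 and above 0 on replicates 2 and 4, as all genes do over a smaller span; the stress response list is at about 0 on replicate 4.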

How the data were processed

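Per the labels' protocols, total RNA from 4 cultures was labelled with Cy3 from 100 ng, and per the submitters' processing notes the arrays were read with Agilent Feature Extraction 11.0.1.1. The deposited files hold the intensity of each spot, background-subtracted and detrended within an array by the authors' software, with no normalization between arrays, and the other deposited columns used are flags of 0 or 1 (design build rn4, per the file headers).

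Spots flagged as outliers (623 to 1016 per array) and control spots were left out, and log2 intensities were averaged per probe (pandas 2.3.3). All arrays detected 34.2% of the 45598 non-control probes, which is under 50%, so each array was scaled on the 75th percentile of the probes in that share. Accessions were matched without version to RefSeq GRCr8, which named 21109 probes. Repeated probes needed a detection flag on more than 50% of their spots. A gene counted as detected with any such probe, and took the level of its brightest.

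There was 1 group and therefore no test. The members, lists and rules were chosen with earlier results of these data known. All members, 9 fixed partner and stress genes and the 3 genes of each partner list with the largest SD were named. On simulated data (15578 probes), SDs of 0.5 and 0.1 were recovered as 0.497 and 0.1. The simulated arrays differed only by constants and independent noise. This checks the calculation, and cannot show how well an SD is measured on arrays that lie in pairs. Alternatives were another detection flag, outlier spots kept, the mean over probes, 3 other scalings, normexp background correction (limma 3.58.1, offset 50, on deposited median intensity), genes detected on at least 1 array, and leaving out each replicate.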

Additional observations from a re-analysis of the deposited data

How the results depend on the processing

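No paired analysis was possible because the arrays form 1 group. Members detected on all arrays were 19 cytosolic under each detection alternative run, and 12 mitochondrial except with the flag for a positive and significant signal, which gave 13 by adding Aars2. Of 148 alternative values of the set results, 122 stayed within the tolerance (1.5 times for a count or SD, 1 SD over the 4 arrays for a median deviation) and none changed sign. The tolerance is wide for median deviations: for mitochondrial members that on replicate 2 was 0.01 with the mean over probes, against 0.11, and that on replicate 3 was -0.07 with normexp, against -0.19. The median SD of the cytosolic members (0.17) was 0.37 with the 75th percentile of all probes and 0.35 with the array median, but 0.17 with quantile normalization; that of the mitochondrial members (0.21) was 0.39, 0.39 and, with quantile normalization, 0.37. Members with a range above 2-fold, 0 cytosolic and 1 mitochondrial, were 1 cytosolic (Kars1) with the 75th percentile of all probes, and 4 cytosolic (Cars1, Farsa, Kars1, Qars1) and 2 mitochondrial (Hars2, Sars2) with the array median. The 1 mitochondrial member was Cars2 and not Hars2 with the 75th percentile of all probes and with quantile normalization. The mean over probes gave 2 mitochondrial, and leaving out a replicate 0 to 1. The median deviations on replicates 1 to 4 with the 75th percentile of all probes were -0.29, 0.30, -0.31 and 0.31 for cytosolic and -0.27, 0.30, -0.39 and 0.33 for mitochondrial members. With the array median they were 0.38 and -0.34 on replicates 2 and 3 for cytosolic and 0.38 and -0.42 for mitochondrial members. With quantile normalization they were 0.30, -0.36 and 0.33 on replicates 2 to 4 for mitochondrial members. Of the 31 SDs of single members, 26 moved by over 1.5 times with the 75th percentile of all probes, 26 with the array median, 22 with quantile normalization and 7 with normexp, so an SD here is a statement about the scaling as well as the gene. Signal over background limits what can be said of Aars2.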
